A study of Homo sapiens with 8 samples.

Results

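The circadian clock genes PER1, PER2, PER3, CRY1, CRY2, NR1D1, NR1D2, DBP, CLOCK and BHLHE40 were followed through the 4 conditions of a corneal epithelium-on-a-chip experiment. They were taken by their symbols from the deposited table, in which all 10 were found among 18430 genes, and all 10 were among the 17445 genes tested. The RNA came from the human corneal epithelial line HCE-T, which had formed a barrier in the upper channel of a microfluidic device during 7 days of culture. The cells were then kept for a further 24 h in 1 of 4 conditions. These were the air–liquid (AL) stimulus with diclofenac (AL_DCF), the AL stimulus without the drug (AL), the static condition with diclofenac (ST_DCF) and the static condition without it (ST). In the AL stimulus, air and liquid were passed in turn through the upper channel as a model of evaporative dry eye. Diclofenac (DCF), a non-steroidal anti-inflammatory drug, was added to the upper channel at 50 µM. All groups shared the same line and the same medium, which held serum, insulin, epidermal growth factor and dimethyl sulfoxide, so each group is a model made of 1 cell line without stroma, nerves or immune cells. Each condition had 2 libraries, described in the study's methods as biological duplicates, and each was sampled at 1 time, so levels but no rhythm were measured.

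The circadian clock is a feedback loop of transcription. CLOCK and its partner BMAL1 bind E-box sequences and drive the PER and CRY genes, whose proteins return to the nucleus and repress that pair. A second loop runs through the nuclear receptors NR1D1 and NR1D2, which repress BMAL1, and outputs such as DBP carry the timing to other genes. In the cornea the clock is known for daily timing of epithelial cell division and renewal. Serum and glucocorticoids can set the phase of the clock in cultured cells.

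Under the AL stimulus, 5 of the 10 clock genes changed and 5 did not pass the test in the average over both drug states. CRY1 rose by 0.35 on the log2 scale, a fold of 1.28, while DBP, PER2, CRY2 and BHLHE40 fell. The largest fall was that of DBP, by 0.63 on the log2 scale, followed by PER2 with a fall by 0.55. CRY2 fell by 0.26 and BHLHE40 by 0.24. PER1, PER3, NR1D1, NR1D2 and CLOCK did not pass. DCF gave no call for any of the 10 genes, with or without the AL stimulus. Of all genes it gave calls for only 0.355% in AL_DCF against AL and 0.00573% in ST_DCF against ST. The absence of calls therefore says nothing particular of the clock genes. Among all genes tested, 31.7% were called for this average AL effect, 15.3% as higher and 16.4% as lower, so the AL stimulus moved a large share of the transcriptome and the 5 of 10 clock genes stand beside that share. The median log2 fold change was −0.16 over the 10 clock genes and 0.01 over all genes tested. Calls were made at an adjusted p under 0.05 in edgeR's quasi-likelihood test, with the Benjamini-Hochberg method applied over 17445 genes. No clock gene passed that threshold together with a fold of 2, beside 5.28% of all genes for the average AL effect.

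The 4 AL-stimulus libraries held 41854839 to 46369412 counts and the 4 static libraries 32880479 to 37954695, so depth differed with the stimulus. The clock genes had 252 to 9545 counts in a library. The labels give HCE-T cells, while their extraction note names myoblasts. Of 10 corneal epithelial markers 8 were in the table, and their summed level was 735 to 817 CPM, which is counts scaled to the library size and TMM factor, in the 4 AL-stimulus libraries and 1792 to 2183 CPM in the 4 static libraries. In AL against ST, KRT5, KRT15, CDH1, EPCAM and KRT18 fell. PAX6, the master regulator of eye development, rose there (adjusted p = 0.0238), and KRT14 and TP63 did not pass the test. In AL_DCF against ST_DCF the falls were called again, while PAX6 did not pass (adjusted p = 0.0677). TP63 had a log2 fold change of 1.10 in AL against ST and −0.54 in AL_DCF against ST_DCF, neither of which passed. The defining corneal keratins KRT3 and KRT12 were not analysed here. Of 8 skeletal myoblast markers 3 were in the table, with a summed level of 2.76 to 4.61 CPM in all libraries, and MYOD1, MYF5, MYOG and PAX7 were not analysed here. Of 7 fibroblast and keratocyte markers 4 were in the table, and AL replicate 2 stood apart with 52.0 CPM against 16.3 to 23.0 CPM in the other 7 libraries. The average AL effect gave 5 called clock genes with that library and 5 without it. Endothelial markers, 4 of 4, summed to 4.07 to 7.28 CPM in AL-stimulus and 7.84 to 22.7 CPM in static libraries. Only 1 of them had a median above 1 CPM. In AL against ST, CDH5 was called lower (log2 fold change −1.20) and PECAM1 higher (2.14), while VWF and KDR did not pass. CD68, the 1 of 4 leukocyte markers in the table, lay at 60.4 to 67.2 CPM in AL_DCF and 38.8 to 41.4 CPM in AL. In static libraries it lay at 54.5 to 68.9 CPM. CD68 was called lower in AL against ST (log2 fold change −0.46) and higher in AL_DCF against AL (0.67). The part of these differences in the clock gene results was not tested. In such bulk samples, fewer cells of a type and less RNA per cell cannot be told apart.

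Compared per transcript length, in the deposited TPM values, BHLHE40 was the most abundant of the clock genes. Its median level over the 8 libraries was 158 TPM, with a range of 143 to 181 TPM, above that of 93.9% of genes in the table. CRY1 (33.7 TPM), PER1 (23.9 TPM) and NR1D2 (22.1 TPM) came next, and their ranges over libraries overlapped from each gene to the next. The ranges of CRY2 (13.8 TPM), CLOCK (11.1 TPM), DBP (8.97 TPM), NR1D1 (8.47 TPM) and PER3 (7.09 TPM) also overlapped from each to the next. PER2 was lowest with a median of 3.85 TPM, its range of 2.78 to 5.17 TPM lying below that of PER3. Even so, PER2 stood above 34.4% of the genes in the table.

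**Figure D1:**
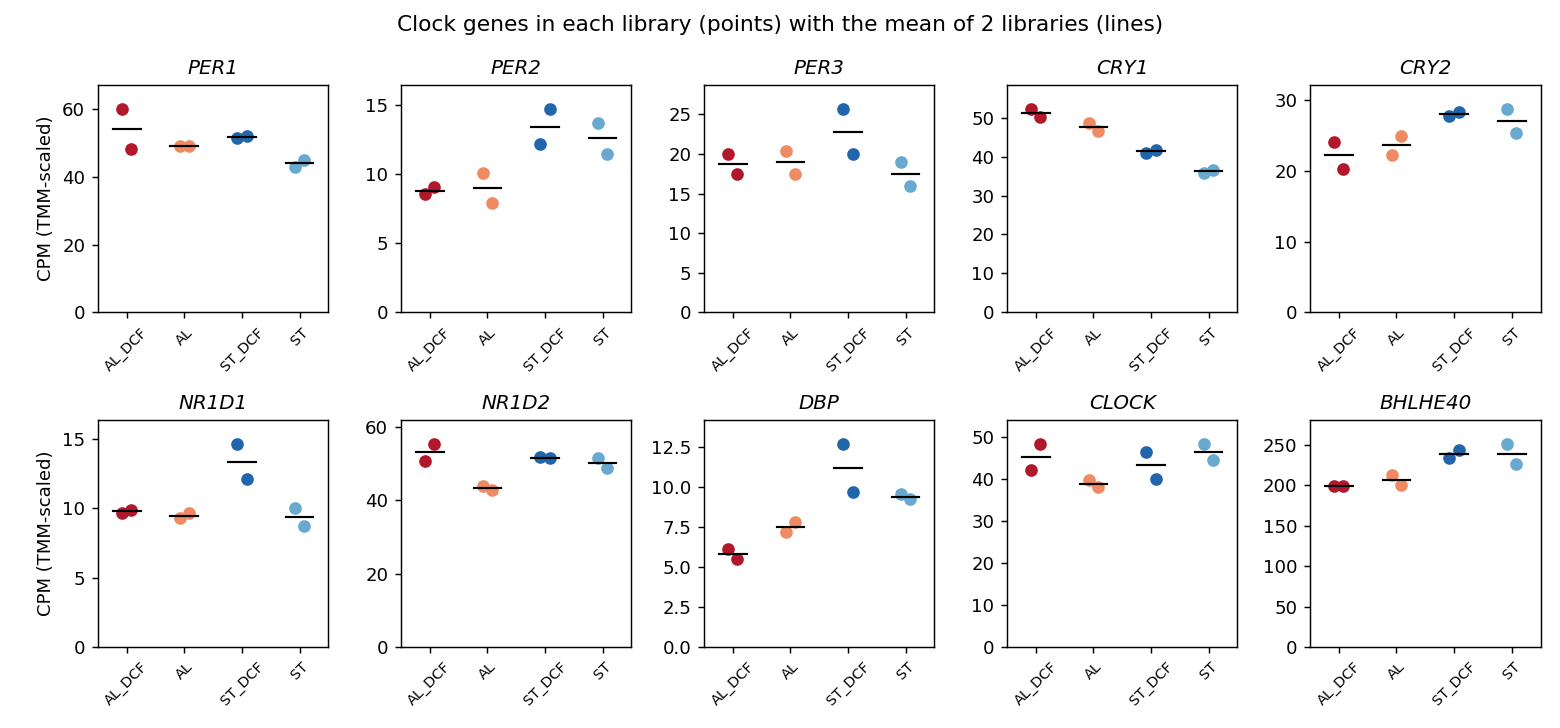
Level of each clock gene in CPM after TMM scaling (vertical axis, from 0) in the 2 libraries of AL_DCF, AL, ST_DCF and ST (points), with the mean of the 2 libraries as a line. CRY1 is higher in all 4 AL-stimulus libraries than in all 4 static libraries, while PER2, CRY2, DBP and BHLHE40 are lower.

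The activator CLOCK, a histone acetyltransferase and the DNA-binding partner of BMAL1, lies at chr4:55427903-55547138 on the minus strand (GRCh38, GENCODE 29, as are all gene positions here). It had 42.2 and 48.4 CPM in AL_DCF and 39.8 and 38.2 CPM in AL, against 46.6 and 40.0 CPM in ST_DCF and 48.4 and 44.5 CPM in ST. Both AL libraries were the lowest of the 8, while the other 3 conditions overlapped. The average AL effect on CLOCK was −0.09 on the log2 scale (95% interval −0.25 to 0.06, adjusted p = 0.36). In AL against ST it differed by −0.25 on the log2 scale (standard error 0.10, unadjusted p = 0.0307, adjusted p = 0.116). CLOCK overlaps TMEM165 on the opposite strand over 25495 bases. TMEM165 rose by 0.25 on the log2 scale in the average AL effect (adjusted p = 0.0161), while the average AL effect on CLOCK, −0.09, did not pass. The kit marks strand, but the strand setting of the counting is not given in the sources used here, so a part of the reads of such overlapping pairs could be shared.

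Of the PER genes, the period repressors that pair with CRY proteins, PER2 fell and the other two did not pass the test. PER2 (chr2:238244038-238290102, minus strand) had 8.56 and 9.06 CPM in AL_DCF and 10.1 and 7.90 CPM in AL, against 12.2 and 14.7 CPM in ST_DCF and 13.7 and 11.4 CPM in ST. All 4 AL-stimulus libraries lay below all 4 static libraries. The average AL effect was −0.55 (standard error 0.11, 95% interval −0.79 to −0.30, adjusted p = 0.00359), a fold of 0.685. This call held under every alternative run except the added demand of a fold of 2, with adjusted p between 0.000151 and 0.0215.

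PER1 (chr17:8140472-8156506, minus strand), an early responder to glucocorticoids and cyclic AMP, had 59.9 and 48.3 CPM in AL_DCF and 49.0 and 49.2 CPM in AL. In static cells it had 51.3 and 52.1 CPM in ST_DCF and 43.0 and 44.8 CPM in ST. The ST libraries were the 2 lowest, and the AL-stimulus and static libraries overlapped. For PER1 the average AL effect was 0.11 (95% interval −0.04 to 0.27, adjusted p = 0.257). Without AL_DCF replicate 2 it was 0.19 and passed, with an adjusted p of 0.0296 in a range of 0.0296 to 0.753 over the leave-one-out fits, and without AL_DCF replicate 1 it was 0.03.

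PER3 (chr1:7784320-7845177, plus strand), the member of the family least needed for rhythm in mice, had 20.0 and 17.4 CPM in AL_DCF and 20.4 and 17.5 CPM in AL, against 25.6 and 20.0 CPM in ST_DCF and 19.0 and 16.0 CPM in ST. ST_DCF replicate 1 was the highest library, both ST_DCF values exceeded both ST values, and the AL-stimulus libraries overlapped each static condition. For PER3 the average AL effect was −0.09 (95% interval −0.31 to 0.14, adjusted p = 0.575).

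The CRY genes, which encode the strongest repressors of CLOCK and BMAL1, went opposite ways. CRY1 (chr12:106991364-107093829, minus strand) had 52.1 and 50.1 CPM in AL_DCF and 48.6 and 46.6 CPM in AL, against 40.9 and 41.6 CPM in ST_DCF and 35.8 and 36.6 CPM in ST. The 4 conditions did not overlap and lay in the order AL_DCF, AL, ST_DCF and ST. CRY1 rose on average by 0.35 (standard error 0.056, 95% interval 0.23 to 0.47, adjusted p = 0.000662), and it was called whichever library was left out. CRY1 was the only clock gene to rise.

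CRY2 (chr11:45847118-45883248, plus strand) had 24.1 and 20.3 CPM in AL_DCF and 22.3 and 25.0 CPM in AL, against 27.7 and 28.3 CPM in ST_DCF and 28.7 and 25.4 CPM in ST. The AL-stimulus libraries all lay below the static ones, but the highest AL library and the lowest ST library were close. CRY2 fell by 0.26 on the log2 scale in the average AL effect (standard error 0.081, 95% interval −0.44 to −0.09, adjusted p = 0.0269). It did not pass in AL against ST (−0.19, adjusted p = 0.28) or in AL_DCF against ST_DCF (−0.34, adjusted p = 0.0582), so only the average called it. The call was lost without AL_DCF replicate 2 (adjusted p = 0.0778), AL replicate 1 (0.121), ST_DCF replicate 2 (0.0539) or ST replicate 1 (0.114), and limma did not call it with either pseudocount (0.0769 with FPKM + 1 and 0.069 with FPKM + 0.1). Over all alternatives the adjusted p ran from 0.0104 to 0.121.

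NR1D1 and NR1D2 encode the REV-ERB nuclear receptors, heme-binding repressors of BMAL1. NR1D1 (chr17:40092787-40100725, minus strand) had 9.68 and 9.89 CPM in AL_DCF and 9.28 and 9.68 CPM in AL, against 14.6 and 12.1 CPM in ST_DCF and 10.0 and 8.72 CPM in ST. Only the ST_DCF libraries stood apart, both above the other 6. NR1D1 had an average AL effect of −0.22 (95% interval −0.43 to 0.00, adjusted p = 0.12). Without ST_DCF replicate 2 it was −0.28 and passed (adjusted p = 0.0487, in a range of 0.0487 to 0.339 over the alternatives). NR1D1 overlaps THRA, the thyroid hormone receptor alpha gene, over 1081 bases on the opposite strand. THRA rose under the AL stimulus by 0.37 on the log2 scale (adjusted p = 0.00281).

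NR1D2 (chr3:23945260-23980618, plus strand) had 50.8 and 55.3 CPM in AL_DCF and 44.0 and 43.0 CPM in AL, against 51.8 and 51.4 CPM in ST_DCF and 51.5 and 48.9 CPM in ST. As for CLOCK, the AL libraries were the 2 lowest and the other conditions overlapped. Its average AL effect was −0.08 (95% interval −0.21 to 0.04, adjusted p = 0.296).

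DBP, a D-box binding activator and a direct E-box target of CLOCK and BMAL1, showed the largest change. DBP (chr19:48630030-48637438, minus strand) had 6.12 and 5.52 CPM in AL_DCF and 7.20 and 7.80 CPM in AL, against 12.7 and 9.65 CPM in ST_DCF and 9.57 and 9.21 CPM in ST. The AL_DCF libraries were lowest, the AL libraries came next, and all 4 lay below every static library. DBP had an average AL effect of −0.63 (standard error 0.11, 95% interval −0.88 to −0.38, adjusted p = 0.00139), a fold of 0.645. It was called in every leave-one-out fit. SPHK2, which overlaps DBP over 688 bases on the opposite strand, differed by −0.01 on the log2 scale (adjusted p = 0.964).

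BHLHE40, known as DEC1, is a repressor that competes for E-boxes and responds to hypoxia and many other stimuli. BHLHE40 (chr3:4979116-4985323, plus strand) had 199 and 199 CPM in AL_DCF and 213 and 200.2 CPM in AL, against 234 and 244 CPM in ST_DCF and 251 and 227 CPM in ST. The 4 AL-stimulus libraries lay below the 4 static libraries. BHLHE40 fell by 0.24 on the log2 scale (standard error 0.057, 95% interval −0.36 to −0.11, adjusted p = 0.00795). Without ST replicate 1 it missed the threshold (adjusted p = 0.0592), in a range of 0.000808 to 0.0592 over the alternatives. Its antisense partner BHLHE40-AS1, at 0.671 to 1.83 CPM, rose by 0.86 on the log2 scale (adjusted p = 0.0129).

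With all 8 libraries set side by side, 1 clock gene was higher and 4 were lower in all 4 AL-stimulus libraries than in all 4 static libraries, and 5 overlapped. Among all genes tested, 28.3% did not overlap, 13.6% being higher and 14.7% lower. Extreme libraries were spread out, since no library was highest for more than 3 of the 10 clock genes, a number reached by ST_DCF replicate 1, or lowest for more than 3.

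Which of these differences were seen without the drug was asked in AL against ST. Of the 10 clock genes 1 was higher and 0 were lower, beside 17.9% of all genes called, 7.63% as higher and 10.3% as lower, so this count says nothing particular of the clock genes as a group. CRY1 rose by 0.40 on the log2 scale (standard error 0.080, adjusted p = 0.00537). The call of CRY1 was lost without AL replicate 1 (adjusted p = 0.0644), ST replicate 1 (0.0707) or ST replicate 2 (0.0514), in a range of 2.4e-06 to 0.0707. PER2 (−0.48 on the log2 scale, adjusted p = 0.0593) and DBP (−0.32, adjusted p = 0.193) did not pass. EdgeR's exact test called 5 clock genes here, CRY1 higher and PER2, NR1D2, CLOCK and BHLHE40 lower, beside 32.4% of all genes called by that test. DESeq2 called CRY1 and PER2, beside 18.8% of all genes. The median of the 10 log2 fold changes was −0.20, against 0.00 over all genes.

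The same comparison in the presence of the drug, AL_DCF against ST_DCF, gave 1 clock gene higher and 4 lower, beside 20.7% of all genes called, 9.38% as higher and 11.4% as lower. DBP fell by 0.94 on the log2 scale (standard error 0.16, adjusted p = 0.00178), a fold of 0.521. It was called under every alternative except the 2 that demand a fold of 2. PER2 fell by 0.61 (adjusted p = 0.0201), NR1D1 by 0.45 (adjusted p = 0.0394) and BHLHE40 by 0.26 (adjusted p = 0.0364), and CRY1 rose by 0.31 (adjusted p = 0.0184). These 4 calls were less firm, since leaving out any 1 of the 8 libraries gave 2 or 3 called clock genes in place of 5. The median of the 10 log2 fold changes was −0.28, against 0.01 over all genes. That of NR1D1 was lost without each library other than ST_DCF replicate 2, and without ST_DCF replicate 1, the highest library, its log2 fold change was −0.31 (adjusted p = 0.209, with 0.0203 to 0.209 over the alternatives). The call of BHLHE40 was lost without any library but ST_DCF replicate 1 (adjusted p 0.0128 to 0.122 over the alternatives). PER2 was lost without AL_DCF replicate 1 (adjusted p = 0.0696), AL_DCF replicate 2 (0.0584) or ST_DCF replicate 2 (0.103), in a range of 0.00517 to 0.103. CRY1 was lost without AL_DCF replicate 1 (0.0545) or ST_DCF replicate 1 (0.0618), in a range of 0.0146 to 0.118.

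**Figure D2:**
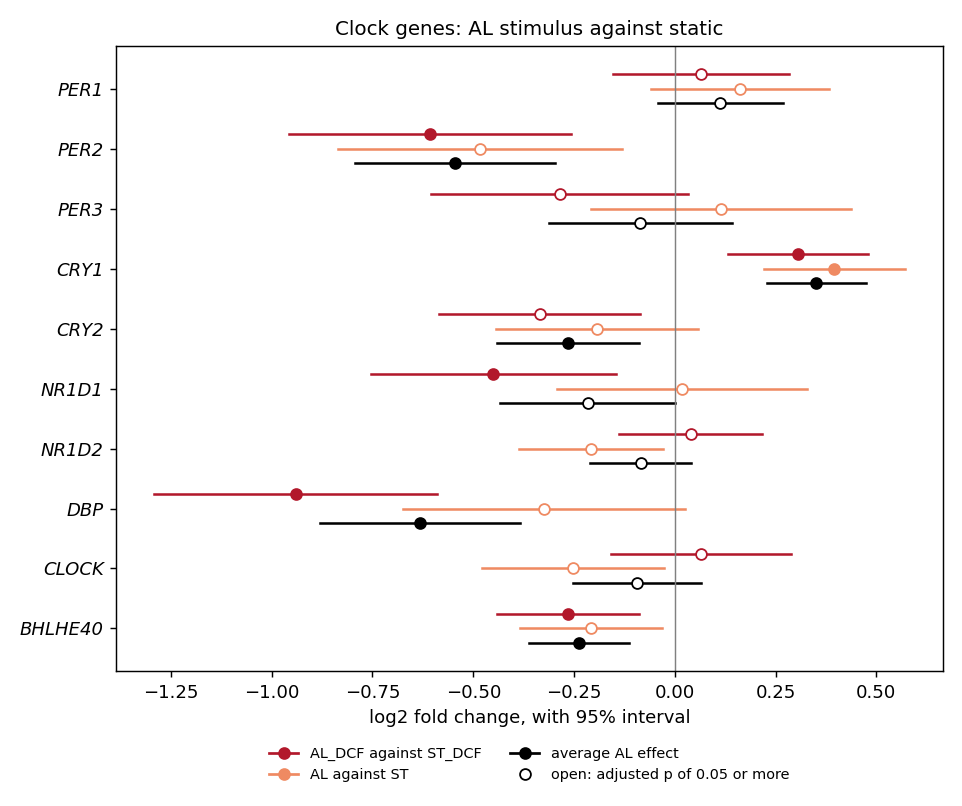
Log2 fold change of each clock gene (horizontal axis, points) with its 95% interval (lines) for AL_DCF against ST_DCF, AL against ST and their average, filled where the adjusted p was under 0.05. CRY1 lies right of 0 in all 3 and DBP, PER2, CRY2 and BHLHE40 lie left of 0, DBP at −0.94 in the presence of DCF.

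AL_DCF against ST, which combines the stimulus and the drug, gave 1 clock gene higher and 3 lower, beside 18.3% of all genes called, 8.49% as higher and 9.83% as lower. CRY1 rose by 0.50 on the log2 scale (adjusted p = 0.00135), a fold of 1.41, and was called in every leave-one-out fit. DBP fell by 0.69 (adjusted p = 0.0123), and its call was lost without AL_DCF replicate 2 (adjusted p = 0.0624), ST replicate 1 (0.0804) or ST replicate 2 (0.0651), in a range of 0.000827 to 0.0804. PER2 fell by 0.51 (adjusted p = 0.0464) and BHLHE40 by 0.26 (adjusted p = 0.0408). Both calls were lost without any 1 of the 6 AL_DCF, AL and ST libraries, with adjusted p over all alternatives from 0.013 to 0.296 for PER2 and from 0.0174 to 0.333 for BHLHE40. The log2 difference of PER1 was 0.30 (adjusted p = 0.0595). It was 0.45 and passed without AL_DCF replicate 2 (adjusted p = 0.00694), was 0.14 without AL_DCF replicate 1 (0.331), and passed in DESeq2 (0.0447), in a range of 0.00694 to 0.331. The median over the 10 clock genes was 0.01, against 0.00 over all genes. The comparisons of AL_DCF and of AL with ST share the ST libraries, so their values stand side by side and are not independent.

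Whether DCF itself moved the clock genes was asked in each state. In ST_DCF against ST, 0 of the 10 clock genes were called by edgeR's quasi-likelihood test, beside 0.00573% of all genes. At an unadjusted p under 0.05 there were 4 clock genes, PER1, PER3, CRY1 and NR1D1, all with higher values, beside 10% of all genes. NR1D1 had the largest log2 fold change, 0.51 (95% interval 0.21 to 0.82, unadjusted p = 0.00353, adjusted p = 0.361). PER3 had 0.38 (95% interval 0.06 to 0.70, adjusted p = 0.442). For each of these 4 genes the ST_DCF libraries were both higher than the ST libraries.

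In AL_DCF against AL, edgeR's quasi-likelihood test again called 0 of the 10 clock genes, beside 0.355% of all genes. At an unadjusted p under 0.05 there were 2 clock genes, beside 12.6% of all genes. NR1D2 had a log2 difference of 0.29 (95% interval 0.11 to 0.47, unadjusted p = 0.00423, adjusted p = 0.187) and DBP had −0.37 (95% interval −0.72 to −0.01, unadjusted p = 0.043, adjusted p = 0.378). DESeq2, edgeR's exact test and limma on FPKM values also called 0 clock genes in both drug comparisons, where they called at most 2.12% of all genes.

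The interaction term, the DCF difference under AL minus that in static cells, tests whether the drug difference depended on the stimulus. It was called for 0 of the 10 clock genes, beside 0.0344% of all genes, by edgeR's quasi-likelihood test. DESeq2 (0.825% of all genes) and limma (0%) also called it for 0. At an unadjusted p under 0.05 there were 3 clock genes, DBP, NR1D1 and CLOCK, beside 11.3% of all genes. DBP had an interaction of −0.62 on the log2 scale (95% interval −1.11 to −0.12, adjusted p = 0.371). Over the alternatives it ran from −0.80 to −0.41, with adjusted p from 0.11 to 0.831. Both AL_DCF libraries of DBP lay below both AL libraries. In static cells the DBP difference of ST_DCF against ST was 0.25 (95% interval −0.10 to 0.60), and it was 0.04 without ST_DCF replicate 1. ST_DCF replicate 2 of DBP (9.65 CPM) was close to ST replicate 1 (9.57 CPM) and lay below it in TPM (10.1 against 10.8 TPM). NR1D1 had −0.47 (95% interval −0.90 to −0.03, adjusted p = 0.413) and CLOCK had 0.32 (95% interval 0.00 to 0.64, adjusted p = 0.443).

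**Figure D3:**
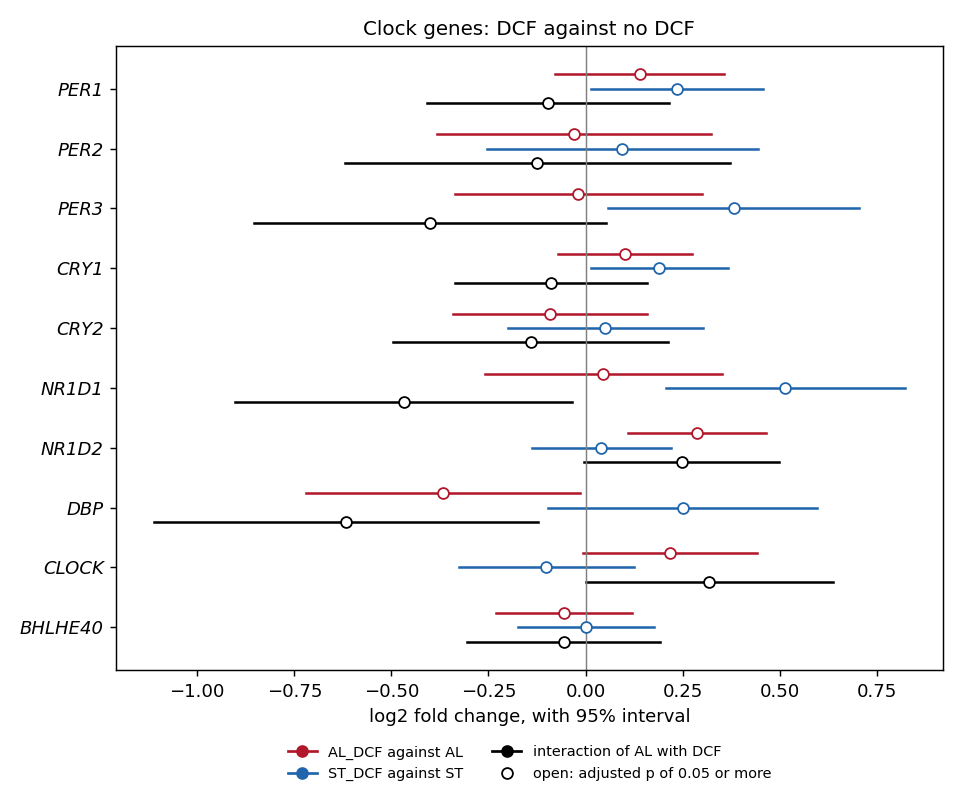
Log2 fold change of each clock gene (horizontal axis, points) with its 95% interval (lines) for AL_DCF against AL, ST_DCF against ST and the interaction of both treatments. All points are open, since no adjusted p was under 0.05, and the intervals of NR1D1 in ST_DCF against ST (0.21 to 0.82) and of DBP for the interaction (−1.11 to −0.12) leave out 0.

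A further 28 clock pathway genes were read from the table. For the average AL effect 2 of these were higher, 7 were lower and 19 did not pass the test, so 9 of 28 were called beside 31.7% of all genes, with a median log2 fold change of −0.07. In the 3 drug comparisons, the interaction included, edgeR's quasi-likelihood test called 0 of them, with 5 in ST_DCF against ST (beside 10% of all genes), 5 in AL_DCF against AL (12.6%) and 3 in the interaction (11.3%) at an unadjusted p under 0.05. DESeq2 and edgeR's exact test each called 1 of them in AL_DCF against AL, and limma called 0 in all 3.

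Among the activators, the gene of BMAL1 (ARNTL in the table) did not pass, with an average AL effect of 0.11 (adjusted p = 0.339). Its levels were 28.1 and 25.7 CPM in AL_DCF and 27.6 and 23.5 CPM in AL, against 25.2 and 22.7 CPM in ST_DCF and 24.3 and 25.4 CPM in ST. Both AL_DCF libraries lay above all static libraries, while the AL libraries overlapped the static ones. The gene of its relative BMAL2 (ARNTL2) fell by 0.37 (adjusted p = 0.00081) and that of NPAS2, which can stand in for CLOCK, by 0.51 (adjusted p = 0.00863). NPAS2 had 25.1 and 20.4 CPM in AL_DCF and 16.0 and 17.0 CPM in AL, against 39.5 and 25.6 CPM in ST_DCF and 24.9 and 22.0 CPM in ST. Its AL_DCF and ST libraries overlapped. NPAS2 did not pass in AL against ST (adjusted p = 0.0726) or in AL_DCF against ST_DCF (adjusted p = 0.0549).

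Among the repressors, BHLHE41, the relative of BHLHE40 known as DEC2, had the largest change of all the clock pathway genes. It had 3.20 and 3.11 CPM in AL_DCF and 3.06 and 2.57 CPM in AL, against 10.5 and 7.21 CPM in ST_DCF and 5.40 and 6.86 CPM in ST. All AL-stimulus libraries lay well below the static libraries, and BHLHE41 fell by 1.30 on the log2 scale (standard error 0.16, adjusted p = 7.08e-05). CIART, a repressor of CLOCK and BMAL1, fell by 0.73 (adjusted p = 0.0332) at 0.595 to 2.53 CPM. The AL-stimulus and static libraries of CIART overlapped. It did not pass in AL against ST (adjusted p = 0.16) or in AL_DCF against ST_DCF (adjusted p = 0.142). TIMELESS, which acts mainly at the replication fork in mammals, had an average AL effect of 0.16 (adjusted p = 0.0456). It differed by 0.02 in AL against ST (adjusted p = 0.883) and by 0.30 in AL_DCF against ST_DCF (adjusted p = 0.0194).

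Of the D-box factors, TEF, an activator like DBP, fell by 0.22 (adjusted p = 0.0378). TEF did not pass in AL against ST (adjusted p = 0.406) or in AL_DCF against ST_DCF (adjusted p = 0.0564). NFIL3, the repressor of D-boxes, had an average AL effect of 0.11 (adjusted p = 0.191) and rose by 0.31 in AL_DCF against ST_DCF (adjusted p = 0.0282). RORA, an activating receptor that opposes the REV-ERB proteins at their shared element, had −0.06 (adjusted p = 0.796).

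Of 10 kinase and ubiquitin pathway genes, 9 did not pass, and the clock protein kinase GSK3B had an average AL effect of −0.20 (adjusted p = 0.0245). The difference of GSK3B was −0.35 in AL against ST (adjusted p = 0.0144) and −0.05 in AL_DCF against ST_DCF (adjusted p = 0.73). Of 7 output genes, the transcription factor KLF9 rose by 0.38 (adjusted p = 0.0166), KLF10, a transcription factor under clock control, fell by 0.24 (adjusted p = 0.017) and 5 did not pass. In AL against ST neither KLF9 (adjusted p = 0.142) nor KLF10 (0.207) passed. In AL_DCF against ST_DCF KLF10 passed (0.0456) and KLF9 did not (0.0661).

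**Figure D4:**
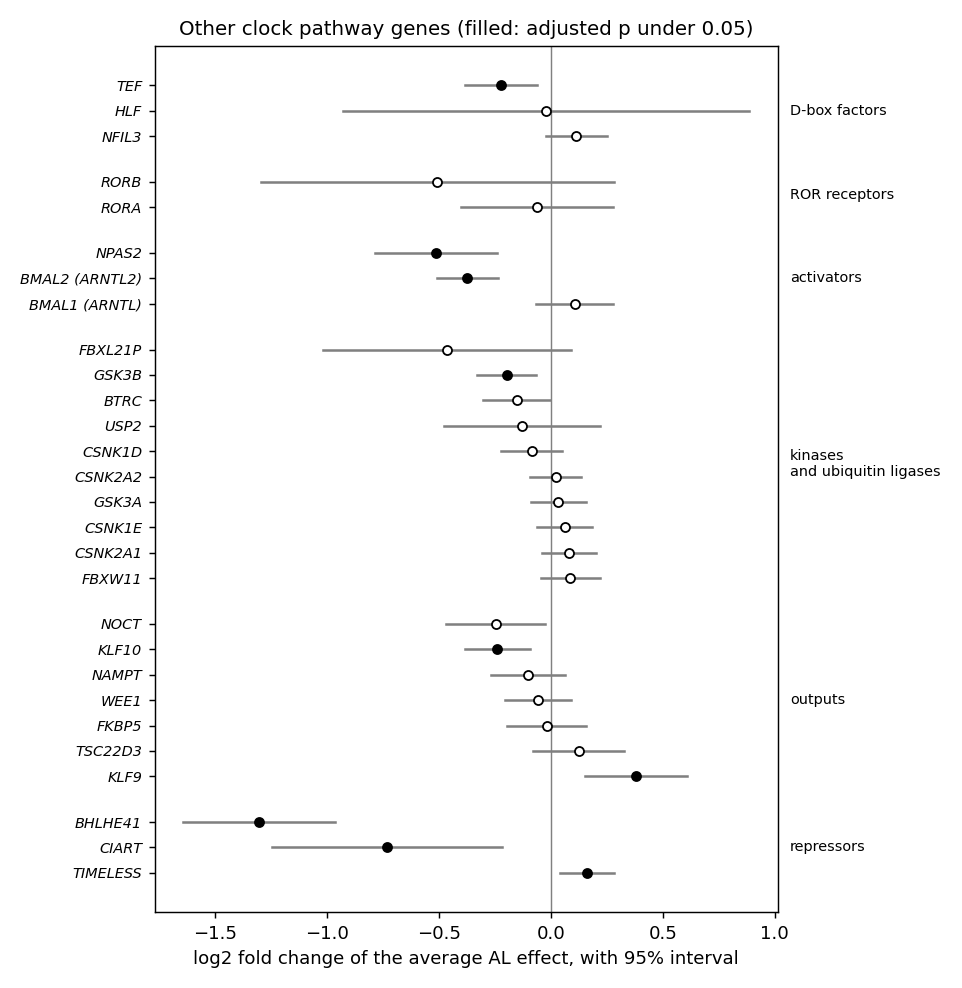
Average AL effect on 28 other clock pathway genes, as log2 fold change (horizontal axis, points) with its 95% interval (lines), grouped by role and filled where the adjusted p was under 0.05. BHLHE41 stands furthest left, at −1.30, and KLF9 lies furthest right, at 0.38.

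The genes of most like pattern were sought by the root-mean-square difference of centred log2 CPM over the 8 libraries, among 13387 genes. ENO1 was nearest to CRY1 (0.036), TDRP to DBP (0.042), KBTBD11 to PER2 (0.088), LOC100288069 to CRY2 (0.045) and IGF2BP3 to BHLHE40 (0.038). THEM6 was nearest to PER1 (0.042), CARNMT1 to PER3 (0.077), SLC22A23 to NR1D1 (0.071), YLPM1 to NR1D2 (0.028) and CHD1 to CLOCK (0.028). No clock gene was the nearest pattern to another. The closest pair of clock genes by rank was PER3 with NR1D1, PER3 being number 32 in the list of NR1D1. Such lists describe 8 libraries of 4 conditions.

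The promoter windows of the 5 genes that changed are shown because the clock is wired through short elements near start sites. Each window was taken from RefSeq (GRCh38.p14) and runs from 250 bases before a start site to 30 bases after it, on the strand of the gene. Windows of 300 bases, with 50 bases after the start, were searched on both strands for an E-box (CACGTG), a D-box (TTATGTAA or TTACGTAA), a ROR element (TAGGTCA), a CRE (TGACGTCA), a glucocorticoid element and a CArG box, and matches are in capitals. Some genes had several start sites, and for CRY2 the window shown is the one with a match.
CRY1 chr12:107093520-107093799 (minus strand): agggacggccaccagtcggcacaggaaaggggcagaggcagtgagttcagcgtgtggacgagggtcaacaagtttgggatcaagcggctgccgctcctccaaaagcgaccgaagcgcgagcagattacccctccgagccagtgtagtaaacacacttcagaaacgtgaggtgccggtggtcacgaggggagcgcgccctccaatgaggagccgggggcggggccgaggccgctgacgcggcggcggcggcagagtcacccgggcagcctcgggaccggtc
PER2 chr2:238288581-238288860 (minus strand): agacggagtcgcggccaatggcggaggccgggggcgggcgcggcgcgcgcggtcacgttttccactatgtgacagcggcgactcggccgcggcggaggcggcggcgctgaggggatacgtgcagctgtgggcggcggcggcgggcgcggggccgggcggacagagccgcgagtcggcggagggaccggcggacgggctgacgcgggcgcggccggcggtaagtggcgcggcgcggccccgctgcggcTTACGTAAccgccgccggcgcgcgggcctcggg
CRY2 chr11:45847225-45847504 (plus strand): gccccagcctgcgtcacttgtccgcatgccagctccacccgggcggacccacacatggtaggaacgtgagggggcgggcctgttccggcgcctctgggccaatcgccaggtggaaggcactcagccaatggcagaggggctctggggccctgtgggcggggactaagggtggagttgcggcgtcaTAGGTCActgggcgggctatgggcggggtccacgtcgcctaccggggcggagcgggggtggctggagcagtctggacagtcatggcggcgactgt
DBP chr19:48637350-48637629 (minus strand): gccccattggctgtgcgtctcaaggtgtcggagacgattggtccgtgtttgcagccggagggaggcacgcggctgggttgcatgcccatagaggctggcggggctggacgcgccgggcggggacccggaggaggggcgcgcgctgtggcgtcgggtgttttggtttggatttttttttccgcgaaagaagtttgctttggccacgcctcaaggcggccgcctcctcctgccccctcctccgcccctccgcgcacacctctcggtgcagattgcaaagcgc
BHLHE40 chr3:4979187-4979466 (plus strand): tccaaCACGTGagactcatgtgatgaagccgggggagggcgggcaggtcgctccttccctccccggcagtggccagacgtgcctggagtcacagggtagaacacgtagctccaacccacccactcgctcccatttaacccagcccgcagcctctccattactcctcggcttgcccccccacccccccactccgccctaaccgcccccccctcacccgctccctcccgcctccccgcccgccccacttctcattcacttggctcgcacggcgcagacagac

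PER2 held a D-box match (TTACGTAA) that begins 3 bases before its start site and runs across it, CRY2 a ROR element 65 bases before, and BHLHE40 an E-box 245 bases before. The windows of CRY1 and DBP, printed without capitals, held none of the motifs. Among the genes that did not pass, PER1 held 1 E-box and NR1D2 held 2 E-boxes and a D-box, PER3 held a D-box, and CLOCK and NR1D1 held none. In all, 3 of the 10 clock genes had an E-box, 3 a D-box, 1 a ROR element and 0 a CRE, a glucocorticoid element or a CArG box in any of their 14 windows. Over 35116 windows of the same length, 7.26% held the E-box, 1.01% the D-box, 1.85% the ROR element, 1.85% the CRE, 0.39% the glucocorticoid element and 1.29% the CArG box. These shares are per window, while the clock gene counts are per gene and take a match in any window of it. The shares and the counts are therefore not on the same scale. For the E-box only CACGTG was searched, so other forms of that element were not counted. A match is a description of letters and not of binding.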

How the data were processed

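Per the labels and the study's methods, the authors used FastQC 0.11.7 and Trimmomatic 0.38 before alignment to GRCh38 by HISAT2 2.1.0, and StringTie 2.1.3b for assembly. Bowtie2 2.3.5.1 is also listed. The deposited count values are raw reads per gene. The deposited FPKM values divide reads by transcript length and mapped reads. The deposited TPM values are per length and sum to nearly the same total in each library. Columns of the authors' own fold changes, p-values, normalized log2 values and means were not used. The authors' filter on transcripts is not given in the sources used here.

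Counts were analysed in R 4.3.3 with edgeR 4.0.16, using TMM factors, filterByExpr by condition and the quasi-likelihood test on all 8 libraries with 4 conditions and no other term, with 4 residual and 7.50 prior degrees of freedom. The average AL effect is the mean of AL against ST and AL_DCF against ST_DCF. The p-values were adjusted by the Benjamini-Hochberg method over 17445 genes, and 95% intervals come from the same fit. In all, 7 comparisons were made. An exact permutation test of 2 against 2 libraries cannot go below p = 0.333 and was not used. Duplicates differed by more than counting noise in each condition, and more so in the conditions with DCF. The chi-square per gene was 5.3 in ST, 8.75 in AL, 23.4 in ST_DCF and 23.4 in AL_DCF. All 4 conditions nevertheless shared 1 estimate of the spread in the main fit. Log2 CPM for pattern likeness used a prior count of 2. The test was tried on simulated data with known changes. Alternatives were DESeq2 1.42.0, edgeR's exact test, RLE factors, other filters, the compared groups alone, a replicate block, limma 3.58.1 on log2(FPKM + 1) and log2(FPKM + 0.1), a fold of 2 and leaving out each library.

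Clock genes and gene lists were chosen with earlier results of these data known. All clock genes are named. Some other pathway genes are not reported here. The remaining pathway genes are named if called in any comparison or if they are BMAL1, NPAS2, RORA, NFIL3, TEF or BHLHE41, and KRT and other markers only check the labels.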

Additional observations from a re-analysis of the deposited data

Results flagged for a closer look

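The DBP levels were ordered in opposite ways in the drug comparisons, with a small difference in static cells. Both AL_DCF libraries (6.12 and 5.52 CPM) lay below both AL libraries (7.20 and 7.80 CPM), while both ST_DCF libraries (12.7 and 9.65 CPM) lay above both ST libraries (9.57 and 9.21 CPM). The interaction, −0.617 on the log2 scale, did not pass edgeR's quasi-likelihood test (adjusted p = 0.371) and ran from −0.80 to −0.41 over the alternatives. In ST_DCF against ST the DBP difference was 0.25 (95% interval −0.10 to 0.60) and ran from 0.04, without ST_DCF replicate 1, to 0.43, without ST_DCF replicate 2. In TPM, ST_DCF replicate 2 (10.1 TPM) lay below ST replicate 1 (10.8 TPM).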

How the results depend on the processing

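Against 1, 4, 5 and 5 called clock genes in AL against ST, AL_DCF against ST, AL_DCF against ST_DCF and the average AL effect, demanding a fold of 2 beside the adjusted p left 0 in each, and the exact test with a fold of 2 and an unadjusted p left 0 in the first 3. Of all genes, the former kept 4.79%, 4.79%, 5.25% and 5.28%, and the latter 6.33%, 6.19% and 6.51%. At such shares 0 of 10 says nothing particular of the clock genes. DESeq2 called 2 in AL against ST, beside 18.8% of all genes. The exact test and the compared groups alone each called 5 in AL against ST and 2 in AL_DCF against ST_DCF. Over all genes they called 5650 and 5593 in AL against ST, in place of 3124, and 2574 and 1893 in AL_DCF against ST_DCF, in place of 3619. In AL_DCF against ST, no filter called 2, beside 15.5% of all genes. Limma called 1 there with FPKM + 1 (13.8% of all genes) and 2 with FPKM + 0.1 (14.3%). With either pseudocount limma called 3 in AL_DCF against ST_DCF (15.6% and 16% of all genes) and 4 for the average AL effect (27.5% and 28%). Replicate numbers did not pair the samples (correlations of same-numbered deviations −0.102 to 0.0985). A replicate block called 2 in AL_DCF against ST (16.9% of all genes), 3 in AL_DCF against ST_DCF (19.2%) and 5 for the average (29.9%). A block with the AL_DCF numbers crossed, added after seeing the data, called 4 in AL_DCF against ST (19.7% of all genes), 3 of them in common. Leaving out each library gave 0 to 2, 1 to 4, 2 to 3 and 3 to 5 calls. RLE factors and at least 10 counts in every library kept all calls of these 4 comparisons. The cause of these differences was not tested.

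No called fold change turned round. Of 55 that were not called, values near 0 did so 32 times, none beyond 0.158 in size. PER3 in AL_DCF against AL was 0.014 and 0.018 with limma. Leaving out each library gave these ranges: in AL against ST, PER3 −0.005 to 0.243 and NR1D1 −0.077 to 0.117; in AL_DCF against ST, PER3 −0.024 to 0.224, NR1D1 −0.031 to 0.164 and CLOCK −0.137 to 0.059; in ST_DCF against ST, PER2 −0.045 to 0.234, CRY2 −0.035 to 0.145, CLOCK −0.213 to 0.004 and BHLHE40 −0.072 to 0.080. In AL_DCF against AL, PER1 ranged −0.020 to 0.287, PER2 −0.194 to 0.158, PER3 −0.125 to 0.096 and CRY2 −0.212 to 0.026. In AL_DCF against ST_DCF, PER1 ranged −0.10 to 0.213, NR1D2 −0.024 to 0.099 and CLOCK −0.039 to 0.178. For the interaction, PER1 ranged −0.256 to 0.051, PER2 −0.289 to 0.063 and BHLHE40 −0.135 to 0.016, and PER3 ranged −0.168 to 0.009 for the average AL effect.

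With 2 libraries a condition, the 95% intervals of the average AL effect on PER1, PER3, NR1D1, NR1D2 and CLOCK include 0, so a difference was not detectable, which does not show that it is absent. Where a group was left with 1 library, it was assumed to vary like the others.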
